A study of Mus musculus with 22 samples.

Results

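The kinetochore and spindle checkpoint genes described here are 38 genes, taken by their symbols from a written list, of the 48709 genes in each of 2 count tables of mouse heart RNA. They comprise 13 genes of the centromere and inner kinetochore, here called inner centromere genes, 15 outer kinetochore genes and 10 checkpoint genes. The study deleted Lin9, a subunit of the MuvB complex, and Sav1, a scaffold of the Hippo kinase pathway, in the developing mouse heart, and sequenced RNA of ventricles at E13.5 (embryonic day). The comparisons ask how the 2 deletions, alone and together, move gene expression in the ventricle.

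All 6 groups carried Nkx2.5-Cre and held 3 libraries each. In the first experiment, LIN9 wt ventricles were compared with LIN9 KO ventricles, which were homozygous for a Lin9 allele with loxP sites around exon 7. The second experiment had a control (LIN9 wt, Sav1 wt), LIN9 KO alone, Sav1 KO alone (homozygous for a Sav1 allele with loxP sites around exon 3) and the double knockout. The labels call Lin9 of the controls wild-type, while the study describes its LIN9 wt controls as Lin9 fl/+, so that Cre could remove 1 allele there. Nkx2.5-Cre acts in cardiac precursors and their progeny, and other cells of the ventricle keep both genes. The animals behind each replicate are not named, and the p-values measure the spread between these samples.

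The kinetochore is the protein assembly that ties a chromosome to the spindle. Its inner layer sits on centromeric chromatin marked by the histone variant CENP-A, its outer layer grips microtubules, and the checkpoint proteins delay anaphase until chromosomes are attached. MuvB with B-MYB is known for switching on genes of late cell cycle stages, and cardiomyocytes of the embryonic ventricle still divide.

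Counts per library lay between 9485599 and 9615274 in the first experiment and between 2770741 and 2999877 in the second. Levels are given as CPM, counts as a share of library totals scaled by TMM, and per kilobase of all annotated exons of a gene (RPKM) where genes stand side by side. Of 12 cardiomyocyte marker genes, 11 had counts in every library, with a summed level of 23487 to 24462 CPM in LIN9 wt of the first experiment. Actc1, the remaining cardiomyocyte marker, had no count in any library, and neither did the erythroid marker Alas2. The 6 skeletal muscle and liver markers summed to 7.61 CPM or less in every library.

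Lin9 itself had 29.8, 21.4 and 25.6 CPM in LIN9 wt of the first experiment and 21.4, 21.3 and 19.2 CPM in LIN9 KO. In the second experiment it had 29.3, 28.1 and 23.2 CPM in the control, 13.1, 15.4 and 17.9 CPM in LIN9 KO, 19.2, 31.4 and 25.6 CPM in Sav1 KO, and 23.5, 26.1 and 18.5 CPM in the double knockout. In the first experiment every LIN9 KO library was lower, the nearest by 21.361 against 21.397 CPM, and the log2 fold change of -0.31 ± 0.14 did not pass (adjusted p = 0.130, edgeR quasi-likelihood test with Benjamini-Hochberg adjustment), while it did with a correction for GC content and length (0.0371). Lin9 was -0.42 there without LIN9 wt replicate 2 and -0.19 without LIN9 wt replicate 1. LIN9 KO of the second experiment lay under its control without overlap, with a log2 fold change of -0.80 ± 0.19 (SE; adjusted p = 0.00270, edgeR quasi-likelihood test with Benjamini-Hochberg adjustment). Double knockout libraries overlapped the control and Sav1 KO libraries in Lin9, where the log2 fold change was -0.24 ± 0.18 against the control and -0.16 ± 0.18 against Sav1 KO. With 1 library left out, the value against the control ranged from -0.38 to -0.14, and that against Sav1 KO from -0.33 to 0.02, the last without Sav1 KO replicate 2. Sav1 had 54.5, 56.2 and 61.9 CPM in the control, 51.9, 49.9 and 47.3 CPM in LIN9 KO, 43.1, 36.1 and 43.0 CPM in Sav1 KO, and 43.97, 40.5 and 42.3 CPM in the double knockout. Within the second experiment, all libraries labelled Sav1 KO were lower in Sav1 than all Sav1 wt libraries. With 1 library left out, the log2 fold change of Sav1 on its deletion ranged from -0.55 to -0.43 with Lin9 intact. In LIN9 KO it ranged from -0.27 to -0.20. The first experiment, with Sav1 intact, had 54.3, 51.5 and 55.3 CPM in LIN9 wt against 52.05, 49.9 and 43.0 CPM in LIN9 KO, the last of which lies in the range of Sav1 KO. Whole-gene counts check the loss of 1 exon only in part, and 28.1% of the exonic length of Sav1 lies within the span of other genes.

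Of the 38 members, 37 passed the filter on low counts in both experiments. Bub3, a partner of the checkpoint kinase Bub1, had 0 counts in all 18 libraries, and its whole exonic length lies within the annotated span of Fgfr2. The study counted with the function summarizeOverlaps. Its overlap mode and strand setting are not stated, so members that overlap others are uncertain. Within other genes' spans lie 82.6% of the exonic length of Ska2, 67.7% of Cenpp, 53.7% of Cenpo and 47.8% of Cenpu. For Zwilch, Cenpq and Mis12 the share is 21.4%, 13.9% and 7.69%. Cenpk has 4.45%, Ska3 2.88%, Mad1l1 2.49% and Cenpt 0.219%. In LIN9 wt of the first experiment, Zwint, an adaptor of the outer kinetochore, had 62.7 ± 4.44 RPKM (SD, n = 3), the checkpoint kinase relative Bub1b 39.5 ± 5.69 RPKM and Cenpa, the centromeric histone itself, 29.7 ± 1.12 RPKM. Spc25 and Spc24, partners in the microtubule-binding Ndc80 complex, had 20.97 ± 1.22 and 20.9 ± 0.534 RPKM. At the low end, Cenpo had 2.50 ± 0.182 RPKM, Cenpu 2.84 ± 0.0923 and Cenpf 2.84 ± 0.698 RPKM. The order of genes depends on the length used. Per kilobase of the longest coding transcript, a choice made after seeing the data, Cenpa had 119 CPM, Zwint 104 CPM, Pmf1 57.7 CPM, Bub1b 46.1 CPM, Spc25 43.8 CPM and Spc24 31.7 CPM, and Cenpo, at 4.17 CPM, was above Cenpf, Cenpu, Casc5 and Cenpe (3.93 to 3.58 CPM). Median levels were 7.59 RPKM for inner centromere, 10.3 RPKM for outer kinetochore and 10.9 RPKM for checkpoint genes, beside 3.87 RPKM over all genes tested, and 15.5, 16.2, 12.8 and 5.19 CPM per kilobase of the longest transcript.

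Promoters are shown for the members that passed the test as lower in all 4 comparisons that differ in Lin9, described further on: Cenpa, Cenpm and Pmf1. Comparisons within the second experiment share libraries, so passing in all 4 is no independent repeat. The share of all genes passing in all 4 is not given. Zwilch, the 1 member that passed as higher in all 4, has no entry in the promoter table, nor do Spc24, Nsl1 and Ska1. Thus 34 of 38 members matched, with Casc5 under its current symbol Knl1. These 34 members have 38 promoters, with 3 for Cenpk and 2 each for Bub3 and Mad1l1. The Bub3 windows overlap, so some of their matches count more than once. The sequences are RefSeq, build GRCm38.p6, from 250 bases before to 50 bases after the gene start, read 5′ to 3′ on the gene's strand: Cenpa chr5:30666636-30666935 (plus strand), Cenpm chr15:82244287-82244586 (minus strand) and Pmf1 chr3:88410348-88410647 (minus strand). Capitals mark matches, on either strand, of TTTGAA and TTTAAA (forms of the cell cycle genes homology region), CCAAT, and the E2F-like GCGGGAA and TTGGCGC.
Cenpa: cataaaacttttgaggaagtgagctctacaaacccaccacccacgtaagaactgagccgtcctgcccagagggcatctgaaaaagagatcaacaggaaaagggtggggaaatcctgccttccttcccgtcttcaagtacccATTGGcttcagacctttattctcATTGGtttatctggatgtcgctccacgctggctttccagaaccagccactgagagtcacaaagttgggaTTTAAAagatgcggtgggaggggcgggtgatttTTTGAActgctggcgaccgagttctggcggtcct
Cenpm: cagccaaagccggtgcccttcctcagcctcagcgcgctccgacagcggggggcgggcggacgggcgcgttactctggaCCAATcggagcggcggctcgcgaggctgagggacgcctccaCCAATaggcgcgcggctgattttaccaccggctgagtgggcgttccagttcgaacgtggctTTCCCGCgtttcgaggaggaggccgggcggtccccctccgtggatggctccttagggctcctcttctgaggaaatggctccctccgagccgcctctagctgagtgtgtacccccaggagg
Pmf1: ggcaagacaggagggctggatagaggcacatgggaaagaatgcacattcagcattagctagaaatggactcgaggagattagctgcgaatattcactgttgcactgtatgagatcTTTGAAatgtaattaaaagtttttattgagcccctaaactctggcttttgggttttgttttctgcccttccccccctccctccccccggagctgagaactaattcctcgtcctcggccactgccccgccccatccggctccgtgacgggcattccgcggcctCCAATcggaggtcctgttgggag
Cenpa held CCAAT at positions -109 and -86 from the start, TTTAAA at -17 and TTTGAA at 16. In Cenpm, CCAAT stood at positions -172 and -131 from the start and GCGGGAA at -70, with neither TTTGAA nor TTTAAA in the window. TTCGAA, a further form of the homology region chosen after the sequences were seen and not in capitals, stood at -83 in Cenpm. It occurred in 3 of 38 member promoters (7.895%; Cenpm, Bub1 and Bub1b), there sharing no base with another match, and in 1.56% of all promoters. Pmf1 held TTTGAA at -135 and CCAAT at 27. Gene starts differ between annotations. In GENCODE M21, used here for lengths, they are 30666777 for Cenpa, 82244748 for Cenpm and 88410331 for Pmf1. The whole Cenpm window lies after that Cenpm start, so positions and absent motifs depend on the start used. CCAAT occurred in 68.4% of the 38 member promoters and 37.4% of all 32851 promoters of the table, and TTTGAA in 44.7% and 17.9%. Counted by gene, CCAAT occurred in 67.65% of the 34 members and 41.06% of all 27025 genes, and TTTGAA in 47.06% and 20.23%. GCGGGAA occurred in 23.7% of member promoters and 4.60% of all, TTTAAA in 15.8% and 13.2%, and TTGGCGC in 5.26% and 2.45%. In 3 member promoters and 213 of all promoters, matches of different motifs shared bases. These matches are letters in a window, and binding was not measured by them.

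Some libraries stood apart at long transcripts of low GC content, a class to which several outer kinetochore genes belong. Over 535 genes whose longest coding transcript exceeds 6000 bases with GC content under 44%, the median log2 deviation from each gene's mean was -0.33 in control replicate 1 and -0.47 in LIN9 KO replicate 1 of the second experiment. Sav1 KO replicate 1 had -0.09, and the other 9 libraries lay between 0.04 and 0.19. In the first experiment, over 560 such genes, LIN9 KO replicate 3 had -0.22 and LIN9 wt replicate 2 -0.15, and the other 4 libraries lay between 0.00 and 0.16. These 2 libraries were the lowest of their groups for Casc5, and LIN9 wt replicate 2 also for Cenpf, with the values given further on. Cenpf, a large coiled-coil protein of the outer kinetochore, had 23.3, 135 and 146 CPM in the control, 20.7, 53.1 and 77.9 CPM in LIN9 KO, 79.8, 178 and 191 CPM in Sav1 KO, and 91.3, 110 and 101 CPM in the double knockout. Cenpe, the kinesin that moves chromosomes at the kinetochore, had 22.3, 83.3 and 96.8 CPM in the control, 14.8, 66.9 and 60.4 CPM in LIN9 KO, 45.8, 114 and 112 CPM in Sav1 KO, and 88.3, 100.4 and 96.4 CPM in the double knockout. Replicate 1 is the low library of Cenpf and Cenpe in every group of the second experiment, and by far in the control and LIN9 KO. Of the 37 members tested, 17 (45.9%) have a GC content under 44%, against 19.3% of the protein-coding genes counted more than 10 times on average in these 12 libraries. Some results of the second experiment are also given without its replicate 1 libraries, a choice made after seeing the data. The cause of the difference between these libraries was not tested.

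**Figure D1:**
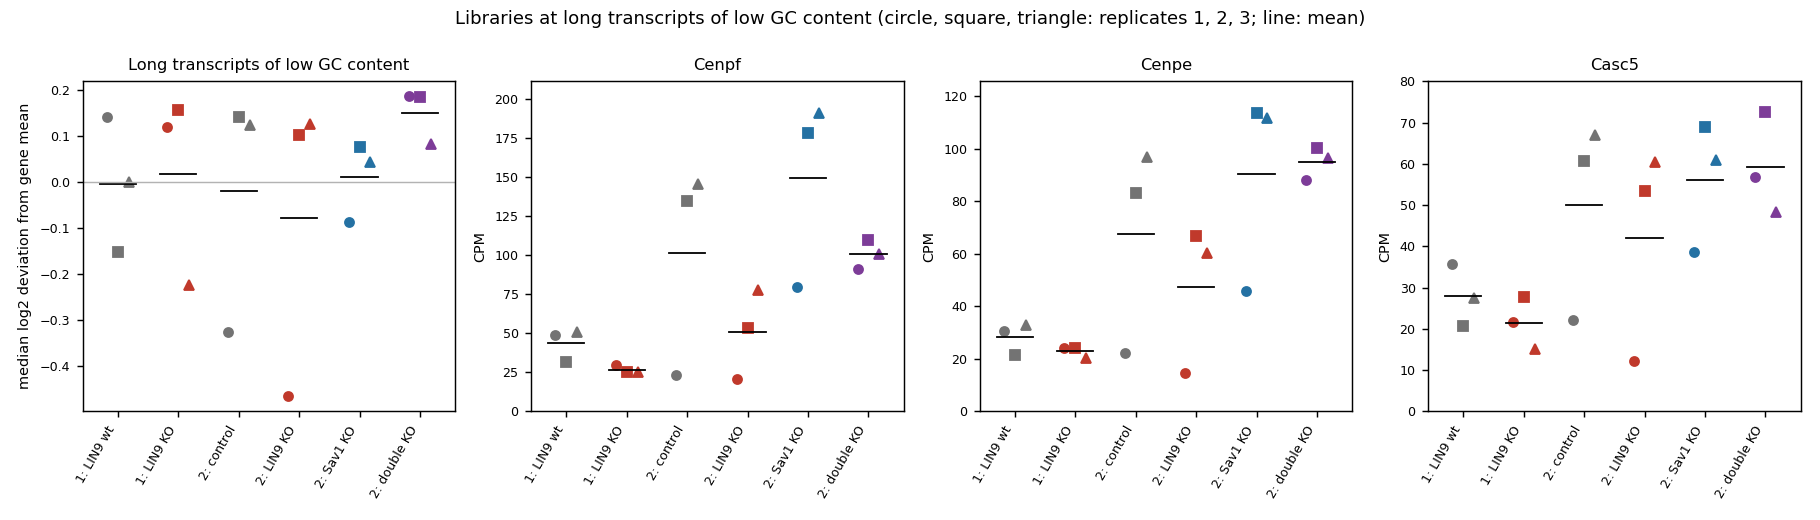
Median log2 deviation of long transcripts of low GC content (left panel) and CPM of Cenpf, Cenpe and Casc5 in each of the 18 libraries; symbols are replicates and lines are group means. Control and LIN9 KO replicate 1 of the second experiment lie at -0.33 and -0.47 in the left panel and are the lowest of their groups for all 3 genes.

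In LIN9 KO ventricles of the first experiment, 10 of 37 members tested passed an adjusted p of 0.05 (27.0%), beside 20.9% of all 19752 genes tested. They split evenly: 5 rose (11.1% of all genes) and 5 fell (9.78% of all genes). Cenpa, Cenpm, Cenpf, Pmf1 and Spc25 were the lower members and Cenph, Cenpo, Cenpq, Ttk and Zwilch the higher ones. The median log2 fold change was 0.01 over the members and 0.02 over all genes. By role, 3 inner centromere genes rose and 2 fell of 13 (median 0.02), 3 outer kinetochore genes fell and 0 rose of 15 (median -0.15), and 2 checkpoint genes rose and 0 fell of 9 (median 0.14). At an unadjusted p under 0.05 stood 6, 4 and 3 genes of the 3 roles, together 35.1% of members beside 32.1% of all genes. DESeq2 called 5 members higher and 5 lower. It gave an adjusted p to all 37 members but to 16687 of the 19752 genes, of which it called 3495 (17.7% of all 19752). The median of the members was -0.02 without LIN9 KO replicate 2 and 0.05 without LIN9 KO replicate 3, beside 0.01 and 0.00 over all genes, so its sign is not settled. Leaving out LIN9 KO replicate 3 raised the members called to 14, beside 21.5% of all genes. With all libraries, every LIN9 KO library lay above every LIN9 wt library for 6 members (18.4% of all genes). Every LIN9 KO library lay under every LIN9 wt library for 8 members (18.1% of all genes). Members named for a small p tend to be among these.

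Inner centromere genes moved both ways. Cenpa had 174, 181 and 168 CPM in LIN9 wt and 96.6, 103 and 122 CPM in LIN9 KO of the first experiment. All 3 LIN9 KO libraries lay under all LIN9 wt libraries, by a log2 fold change of -0.70 ± 0.11 (adjusted p = 0.000353, edgeR quasi-likelihood test with Benjamini-Hochberg adjustment). Cenpm, a member of the centromere-bound network around CENP-H, had 25.2, 29.7 and 27.2 CPM against 16.4, 14.2 and 14.4 CPM in LIN9 KO. The groups were apart, and Cenpm fell by 0.87 on the log2 scale (SE 0.13; adjusted p = 0.000222, the same edgeR test with Benjamini-Hochberg adjustment), or 1.83 times. Cenph, which works in the same complex, went the other way, from 29.3, 30.4 and 30.1 CPM to 40.1, 41.5 and 52.7 CPM. LIN9 KO replicate 3 was the highest and no library overlapped, at a log2 fold change of 0.58 ± 0.12 (adjusted p = 0.00275, edgeR with Benjamini-Hochberg adjustment). Cenpo and Cenpq, of the CENP-O group of proteins, were also higher, at log2 fold changes of 0.59 ± 0.12 and 0.52 ± 0.13. The other 8 inner centromere genes did not pass the test and lay between -0.33 (Cenpl) and 0.21 (Cenpw). Cenpl passed as lower without LIN9 KO replicate 3 and, with a correction for GC content and length chosen after seeing the data, when replicate was a block too.

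The 3 outer kinetochore genes that passed the test were lower. Spc25, of the Ndc80 complex, had 67.4, 62.7 and 70.4 CPM in LIN9 wt and 49.8, 51.5 and 54.9 CPM in LIN9 KO. Its groups did not overlap, and the log2 fold change was -0.36 ± 0.10 (adjusted p = 0.0168, edgeR with Benjamini-Hochberg adjustment). Pmf1, of the Mis12 complex that joins the 2 layers, had 55.5, 61.2 and 57.7 CPM against 43.6, 47.0 and 46.0 CPM. Again the LIN9 KO libraries were all lower, with a log2 fold change of -0.35 ± 0.10 (adjusted p = 0.0181, edgeR with Benjamini-Hochberg adjustment). Cenpf had 48.9, 31.4 and 51.0 CPM in LIN9 wt and 29.7, 25.1 and 25.3 CPM in LIN9 KO. LIN9 wt replicate 2 came near the LIN9 KO libraries without overlapping them, and Cenpf fell by 0.71 on the log2 scale (SE 0.17; adjusted p = 0.00820, edgeR with Benjamini-Hochberg adjustment). Casc5, the scaffold that docks Bub1, had 35.8, 20.7 and 27.5 CPM against 21.7, 27.7 and 15.01 CPM, so that its groups overlapped. Its log2 fold change of -0.39 ± 0.25 did not pass (adjusted p = 0.355, edgeR with Benjamini-Hochberg adjustment), and was -0.61 without LIN9 KO replicate 2 and -0.17 without LIN9 wt replicate 1. With a correction for GC content and transcript length, added after seeing the data, Casc5 passed at -0.45 (adjusted p = 0.0120, edgeR with Benjamini-Hochberg adjustment). Of the other 11 genes, Nuf2, Ndc80, Spc24, Dsn1, Mis12, Nsl1, Zwint, Ska1, Ska2, Ska3 and Cenpe, none passed, at values from -0.30 (Cenpe) to 0.23 (Mis12). The same correction called Ska1 lower, with and without the block. Cenpe was called lower without LIN9 wt replicate 2 and with correction and block, and Mis12 higher without LIN9 KO replicate 3. Pmf1 lost its call without LIN9 wt replicate 2 (adjusted p = 0.0730), LIN9 wt replicate 3 (0.0587) or LIN9 KO replicate 1 (0.0799), all from edgeR with Benjamini-Hochberg adjustment. Spc25 lost its call without LIN9 wt replicate 1 (adjusted p = 0.0683), LIN9 wt replicate 3 (0.0877) or LIN9 KO replicate 1 (0.0763) in the same edgeR test with Benjamini-Hochberg adjustment.

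Of the checkpoint genes 2 passed, both higher. Zwilch, of the RZZ complex that recruits the checkpoint proteins, had 55.3, 49.5 and 53.4 CPM in LIN9 wt and 75.5, 78.6 and 72.9 CPM in LIN9 KO. The spread within groups was small beside the gap, a log2 fold change of 0.52 ± 0.10 (adjusted p = 0.00137, edgeR with Benjamini-Hochberg adjustment). Ttk, the kinase that starts checkpoint signalling, had 34.4, 23.9 and 26.7 CPM against 45.9, 51.0 and 35.4 CPM. LIN9 KO replicate 3 lay just above LIN9 wt replicate 1, and Ttk rose by 0.64 ± 0.16 on the log2 scale (adjusted p = 0.0102, edgeR with Benjamini-Hochberg adjustment). Without LIN9 wt replicate 2 or 3 its adjusted p was 0.0565 and 0.0560 (edgeR, Benjamini-Hochberg adjustment). Bub1, the kinase bound to Casc5, had 70.1, 59.0 and 58.5 CPM against 93.1, 86.9 and 64.1 CPM, and LIN9 KO replicate 3 overlapped LIN9 wt. It did not pass, with 0.38 ± 0.13 (adjusted p = 0.0598, edgeR with Benjamini-Hochberg adjustment), but did without LIN9 KO replicate 3, at 0.52 (adjusted p = 0.000938, edgeR with Benjamini-Hochberg adjustment), and with replicate as a block, at 0.37 (adjusted p = 0.00807, edgeR with Benjamini-Hochberg adjustment). It passed in 5 of 14 alternatives, DESeq2 not among them (adjusted p = 0.0651, Benjamini-Hochberg). The RZZ partners of Zwilch, Zw10 and Kntc1, gave -0.03 and 0.14 and did not pass, nor did Bub1b, Mad1l1, Mad2l1 and Spdl1, between -0.23 and 0.23. Bub1b, at -0.23, was called lower with the GC and length correction, with and without the block, and Kntc1 higher without LIN9 KO replicate 3.

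**Figure D2:**
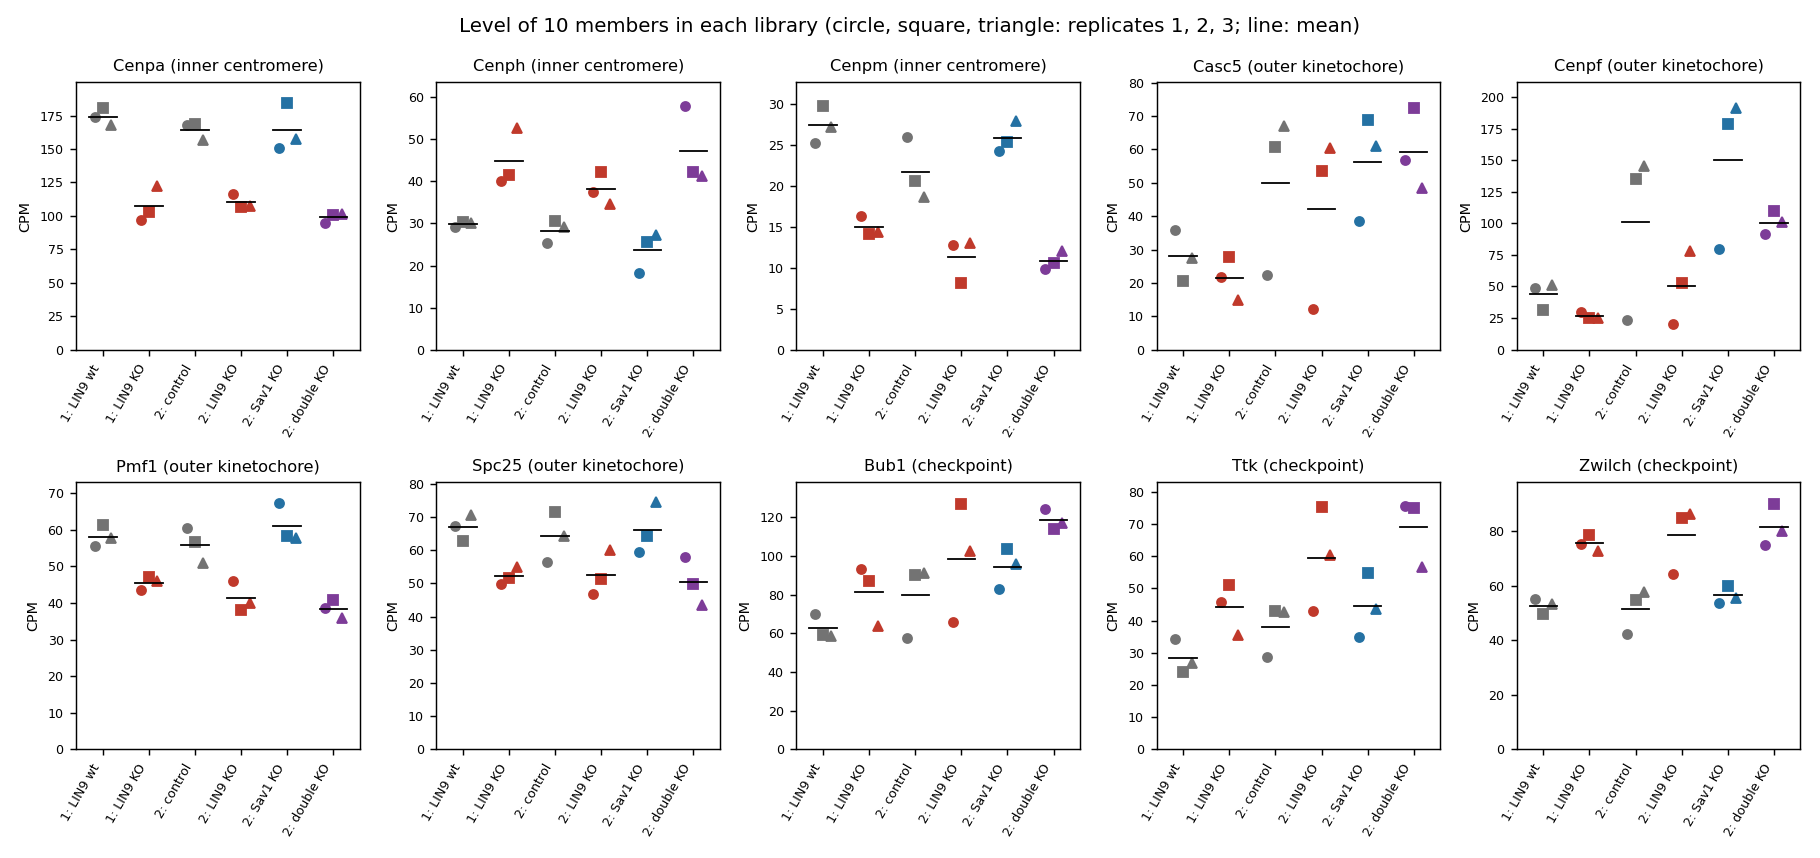
CPM of the 10 members chosen by rule, in each of the 18 libraries; groups are prefixed by experiment, symbols are replicates and lines are group means. Cenpa lies at 96.6 to 122 CPM in LIN9 KO of the first experiment and at 168 to 181 CPM in LIN9 wt.

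Markers of cell types moved with the LIN9 genotype as well. In the first experiment, 8 of 11 cardiomyocyte markers tested were lower in LIN9 KO and 0 higher, and their sum was 11661, 15378 and 11193 CPM in LIN9 KO against 23487, 24462 and 23914 CPM in LIN9 wt, led by Myh7, Myl2 or Tnnt2. Erythroid markers were higher for 10 of 11 genes, with a sum of 90864, 46897 and 34909 CPM against 10970, 7923 and 9202 CPM and Hbb-y as the most abundant of these markers in LIN9 KO. Fibroblast markers, led by Col3a1, were higher for 5 of 6 and summed to 4451, 4906 and 4729 CPM against 2461, 2210 and 2139 CPM. Epicardial markers, led by Upk3b in LIN9 KO, were higher for 5 of 6 (533, 496 and 561 CPM against 293, 286 and 279 CPM), and macrophage markers, led by Csf1r, for 6 of 6 (105, 123 and 107 CPM against 49.1, 52.7 and 55.4 CPM). Of 8 endothelial markers 3 were higher, with sums of 1223, 1594 and 1235 CPM against 1195, 1317 and 1030 CPM. Over all genes, 11.1% were called higher and 9.78% lower in this experiment. In the second experiment, cardiomyocyte markers summed to 26257, 26982 and 27096 CPM in the control, 14792, 13266 and 13367 CPM in LIN9 KO, 28391, 27962 and 29220 CPM in Sav1 KO, and 13018, 15047 and 16276 CPM in the double knockout. Erythroid sums there were 5352, 4263 and 4396 CPM in the control, 21230, 30650 and 39070 CPM in LIN9 KO, 3645, 3341 and 4381 CPM in Sav1 KO, and 30878, 19477 and 10707 CPM in the double knockout. Of fibroblast, epicardial and macrophage markers there, 5 of 6 each were higher in LIN9 KO with Sav1 intact. With Sav1 deleted these counts were 6, 5 and 5, and in the double knockout against the control 6, 4 and 5. For these lists 0 were lower. Of 8 endothelial markers, 3 were higher and 1 lower with Sav1 intact. With Sav1 deleted 5 were higher and 1 lower, and in the double knockout against the control 2 and 1. Over all genes, 12.8%, 11.8% and 10.7% were called higher in these comparisons, in the same order, and 10.5%, 11.6% and 9.96% lower. In these bulk samples, fewer cells of a type and less RNA per cell cannot be told apart, and the part of cell composition in the members' values was not tested.

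The second experiment compared LIN9 KO with the control while Sav1 was intact. Of 37 members, 7 passed the test (18.9%), beside 23.2% of 17675 genes tested: 2 rose (12.8% of all genes) and 5 fell (10.5% of all genes). Cenpq and Zwilch were higher, and Cenpa, Cenpm, Bub1b, Nuf2 and Pmf1 were lower. The median was -0.10 over the members, 0.00 for inner centromere, -0.18 for outer kinetochore and -0.13 for checkpoint genes, and 0.01 over all genes. The members' median was -0.16 without LIN9 KO replicate 3 and -0.05 without LIN9 KO replicate 1. Of the 16 alternatives tried in each comparison of 6 libraries of the second experiment, 3 were chosen after seeing the data, as were 2 of 14 in the first. Cenpa had 168, 169 and 157 CPM in the control and 116, 107 and 108 CPM in LIN9 KO. That is a log2 fold change of -0.58 ± 0.10 with no overlap (adjusted p = 8.24e-05, edgeR with Benjamini-Hochberg adjustment). Cenpm had 25.9, 20.6 and 18.7 CPM against 12.8, 8.20 and 13.0 CPM, at -0.94 ± 0.20 (adjusted p = 0.000804, edgeR with Benjamini-Hochberg adjustment). Pmf1 had 60.5, 56.5 and 50.8 CPM against 46.0, 38.05 and 39.9 CPM, a log2 fold change of -0.44 ± 0.13 (adjusted p = 0.0109, edgeR with Benjamini-Hochberg adjustment). Both genes kept the groups apart. All LIN9 KO libraries lay under all control libraries for 5 members (16.8% of all genes), and above them for 4 (18.4% of all genes). Zwilch had 42.2, 54.8 and 57.8 CPM against 64.4, 85.0 and 86.5 CPM and rose by 0.61 ± 0.13 (adjusted p = 0.000981, edgeR with Benjamini-Hochberg adjustment). Replicate 1 was the lowest Zwilch library in both groups.

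Some calls of that comparison were lost or gained when 1 library was left out. Bub1b, which holds back anaphase as part of the checkpoint complex, had 173.2, 172.7 and 172.9 CPM in the control and 145, 136 and 147 CPM in LIN9 KO, at -0.28 ± 0.09. The 3 control libraries were nearly equal. Its value was -0.28 also without control replicate 3 (adjusted p = 0.0731) or LIN9 KO replicate 2 (0.0632), where the call was lost, both by edgeR with Benjamini-Hochberg adjustment. Nuf2, a partner of Spc25, had 63.2, 65.1 and 68.5 CPM against 46.0, 44.9 and 55.5 CPM and fell by 0.43 (SE 0.12), without overlap and under all 16 alternatives. Cenpq had 8.64, 16.1 and 15.2 CPM against 17.7, 20.99 and 23.5 CPM, with control replicate 1 far under the others. At 0.64 ± 0.21 it passed (adjusted p = 0.0243), but not without control replicate 1, where it fell to 0.38 (0.205), LIN9 KO replicate 2 (0.0824) or LIN9 KO replicate 3 (0.111), nor by DESeq2 (0.0686), with the 6 libraries alone (0.0667) or without all replicate 1 libraries (0.0818), all with Benjamini-Hochberg adjustment and edgeR otherwise. Ttk had 28.6, 42.8 and 42.5 CPM against 43.1, 75.1 and 60.4 CPM. Its groups were barely apart, and 0.65 ± 0.24 did not pass (adjusted p = 0.0719, edgeR with Benjamini-Hochberg adjustment), while it did with the replicate number as a block (0.00383) and without LIN9 KO replicate 1 (0.00322) in the same edgeR test with Benjamini-Hochberg adjustment. Ttk passed in 7 of 16 alternatives, DESeq2 among them (adjusted p = 0.0235, Benjamini-Hochberg), and lay at 0.41 without LIN9 KO replicate 2. Cenph had 25.3, 30.5 and 29.1 CPM against 37.5, 42.3 and 34.7 CPM, apart but not past the test, at 0.44 ± 0.16 (adjusted p = 0.0520, edgeR with Benjamini-Hochberg adjustment). It passed with no filter (0.0316), with the GC and length correction (0.0104) and with that correction and the block (0.00754), by edgeR with Benjamini-Hochberg adjusted p. Spc25 had 56.5, 71.6 and 64.3 CPM against 46.7, 51.2 and 60.02 CPM, overlapping, at -0.29 ± 0.13. It passed without LIN9 KO replicate 3 (adjusted p = 0.0386, edgeR with Benjamini-Hochberg adjustment). Bub1 had 57.5, 90.1 and 91.3 CPM against 65.7, 127 and 103 CPM, overlapping, at 0.31 ± 0.24. It passed at 0.52 without LIN9 KO replicate 1 (adjusted p = 0.0118, edgeR with Benjamini-Hochberg adjustment), and lay at 0.05 without LIN9 KO replicate 2 and 0.10 without control replicate 1. It passed in 4 of 16 alternatives, which do not include DESeq2. Ska1 was called lower without LIN9 KO replicate 3. Cenpe was called lower without all replicate 1 libraries, a choice made after its low values there were seen, so that call is no test.

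Cenpf and Casc5 had wide spreads between libraries in this comparison. For Cenpf, the log2 fold change of -1.01 ± 0.69 did not pass (adjusted p = 0.368, edgeR with Benjamini-Hochberg adjustment), and was -1.495 without control replicate 1 and -0.64 without LIN9 KO replicate 1. Without the replicate 1 libraries of all 4 groups it was -1.11. That choice was made after the low Cenpf values there were seen, so its call there is no test. With the GC and length correction Cenpf was not called, with or without the block. Casc5 had 22.3, 60.6 and 67.1 CPM in the control and 12.2, 53.5 and 60.4 CPM in LIN9 KO. Its groups overlapped at -0.26 ± 0.57, and the value was 0.01 without control replicate 3, 0.18 without LIN9 KO replicate 1 and -0.17 without all replicate 1 libraries. Set side by side by replicate number, each LIN9 KO library was lower than its control library in Casc5, and also in Cenpf. With the replicate number as a block neither gene was called.

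With Sav1 deleted in both groups, 8 of 37 members passed in LIN9 KO against LIN9 wt (21.6%), beside 23.4% of all genes: 2 rose (11.8% of all genes) and 6 fell (11.6% of all genes). This comparison and the next share libraries with the others of the second experiment, so their values are given side by side only. Cenph and Zwilch were higher, and Cenpa, Cenpm, Bub1b, Nuf2, Pmf1 and Spc25 lower, and the median was -0.03 beside 0.03 over all genes, from -0.0622 to -0.0050 with 1 library left out. Cenpm had 24.2, 25.3 and 28.0 CPM in Sav1 KO and 9.88, 10.6 and 12.1 CPM in the double knockout. This was the member with the lowest value, at -1.25 ± 0.20 or 2.38 times (adjusted p = 2.39e-05, edgeR with Benjamini-Hochberg adjustment). Cenpa had 150, 184 and 158 CPM against 94.8, 100.4 and 102 CPM, at -0.73 ± 0.10 (adjusted p = 3.74e-06, edgeR with Benjamini-Hochberg adjustment). Pmf1 had 67.3, 58.4 and 57.7 CPM against 38.5, 40.9 and 35.9 CPM, at -0.67 ± 0.13 (adjusted p = 0.000221, edgeR with Benjamini-Hochberg adjustment). None of these 3 genes overlapped between the groups. All double knockout libraries lay under all Sav1 KO libraries for 6 members (19.2% of all genes), and above them for 7 (21.9% of all genes). Cenph had 18.2, 25.7 and 27.3 CPM in Sav1 KO against 57.9, 42.3 and 41.3 CPM and rose by 0.99 ± 0.16 (adjusted p = 3.94e-05, edgeR with Benjamini-Hochberg adjustment). Zwilch had 53.8, 60.1 and 55.6 CPM against 74.99, 90.2 and 80.0 CPM and rose by 0.53 ± 0.13 (adjusted p = 0.00314, edgeR with Benjamini-Hochberg adjustment). Bub1b had 202, 189 and 191 CPM against 138, 135 and 142 CPM, at -0.49 ± 0.09, with every double knockout library lower.

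Calls near the threshold in that comparison moved with single libraries. Spc25 had 59.6, 64.2 and 74.4 CPM in Sav1 KO against 57.9, 49.7 and 43.4 CPM in the double knockout, at -0.39 ± 0.13 (adjusted p = 0.0324, edgeR with Benjamini-Hochberg adjustment). It did not pass without Sav1 KO replicate 2 (0.0629) or 3 (0.184), nor without double knockout replicate 2 (0.0738) or 3 (0.135) (edgeR, Benjamini-Hochberg adjusted p), nor by DESeq2 (0.0858). Nuf2 had 58.6, 71.9 and 65.2 CPM against 55.9, 50.4 and 50.2 CPM, at -0.32 ± 0.12 (adjusted p = 0.0498, edgeR with Benjamini-Hochberg adjustment). The call did not hold on leaving out Sav1 KO replicate 2 (0.224) or 3 (0.111), or double knockout replicate 2 (0.117) or 3 (0.110), in edgeR with Benjamini-Hochberg adjusted p, nor under DESeq2 (0.130) and other scalings and filters. Ttk had 35.0, 54.7 and 43.7 CPM against 75.7, 75.02 and 56.6 CPM, apart, at 0.64 ± 0.23, and did not pass (adjusted p = 0.0684, edgeR with Benjamini-Hochberg adjustment). It passed without Sav1 KO replicate 2 (0.0340) or double knockout replicate 3 (0.0425), and when replicate was a block (0.00232) (edgeR, Benjamini-Hochberg adjusted p). In all it passed in 9 of 16 alternatives, among them DESeq2 (0.0214), the 6 libraries alone (0.000852) and no filter (3.58e-05), as Benjamini-Hochberg adjusted p. Bub1 had 82.8, 104 and 95.9 CPM against 124, 114 and 117 CPM, apart, and did not pass at 0.33 ± 0.23, nor in 15 of 16 alternatives. Cenpw was called higher with filterByExpr and with the 6 libraries alone, and Mad2l1 lower with correction and block. Cenpf lay at -0.57 ± 0.65, at -0.88 without Sav1 KO replicate 1 and at -0.36 without Sav1 KO replicate 3. Without the replicate 1 libraries, left out after its low values there were seen, it was -0.82. Its call there is no test, and Cenpf passed in no other alternative. Casc5 had 38.7, 68.9 and 61.1 CPM against 56.9, 72.6 and 48.4 CPM, overlapping, at 0.08 ± 0.55, and the sign turned without Sav1 KO replicate 1 (-0.13) or double knockout replicate 2 (-0.12), in a range up to 0.25.

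Double knockout ventricles against the control gave 9 calls in 37 members (24.3%), beside 20.6% of all genes: 4 rose (10.7% of all genes) and 5 fell (9.96% of all genes). Cenph, Cenpq, Ttk and Zwilch were higher, and Cenpa, Cenpm, Bub1b, Nuf2 and Pmf1 lower. The members' median was 0.07 and that of all genes 0.03, with 0.16 for inner centromere, -0.01 for outer kinetochore and 0.16 for checkpoint genes. The members' median ranged from 0.02 to 0.13 with 1 library left out and was -0.05 without the replicate 1 libraries, where that of all genes was 0.02. Cenpm stood at -1.002 ± 0.20, Cenpa at -0.73 ± 0.10, Pmf1 at -0.54 ± 0.13 and Bub1b at -0.32 ± 0.09. Zwilch stood at 0.66 ± 0.13, Cenph at 0.74 ± 0.16 and Cenpq at 0.82 ± 0.20. Ttk was the member with the highest value, at 0.86 ± 0.23 (adjusted p = 0.0221, edgeR with Benjamini-Hochberg adjustment). It did not pass without control replicate 1 (0.0757) or double knockout replicate 1 (0.0855) or 2 (0.0906) (edgeR, Benjamini-Hochberg adjusted p). Nuf2, at -0.33 ± 0.12 (adjusted p = 0.0487), did not pass without any 1 of control replicates 1 (0.0743), 2 (0.0821) and 3 (0.145) or double knockout replicates 2 (0.104) and 3 (0.0981), nor with no filter (0.0512), by edgeR with Benjamini-Hochberg adjustment. DESeq2 did not call Nuf2 here either (0.123, Benjamini-Hochberg adjusted p). Spc25, at -0.35 ± 0.13 (adjusted p = 0.0629), passed without control replicate 1 (0.0442) or double knockout replicate 1 (0.0145) by edgeR with Benjamini-Hochberg adjustment, and in 6 of 16 alternatives in all, which do not include DESeq2. Bub1, at 0.57 ± 0.24 (adjusted p = 0.125), passed with the replicate number as a block (0.0118), by edgeR with Benjamini-Hochberg adjustment. It passed in 7 of 16 alternatives, among them DESeq2 (0.0299), no filter (0.00168) and the 6 libraries alone (0.00581), as Benjamini-Hochberg adjusted p. Cenpf lay at -0.01 ± 0.66 and turned to 0.25 without control replicate 2, to 0.35 without control replicate 3, to 0.02 without double knockout replicate 1 and to 0.23 with the block. Cenpq did not pass without all replicate 1 libraries (adjusted p = 0.0623, edgeR with Benjamini-Hochberg adjustment). Without them Cenpf was -0.42, where its call is no test because its low values there were seen before the choice. The GC and length correction did not call Cenpf, with or without the block. Casc5 lay at 0.25 ± 0.56, and between -0.11 and 0.52 with 1 library left out, the lowest without control replicate 1. Cenpo was called higher without double knockout replicate 1, and Mad2l1 lower with correction and block.

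**Figure D3:**
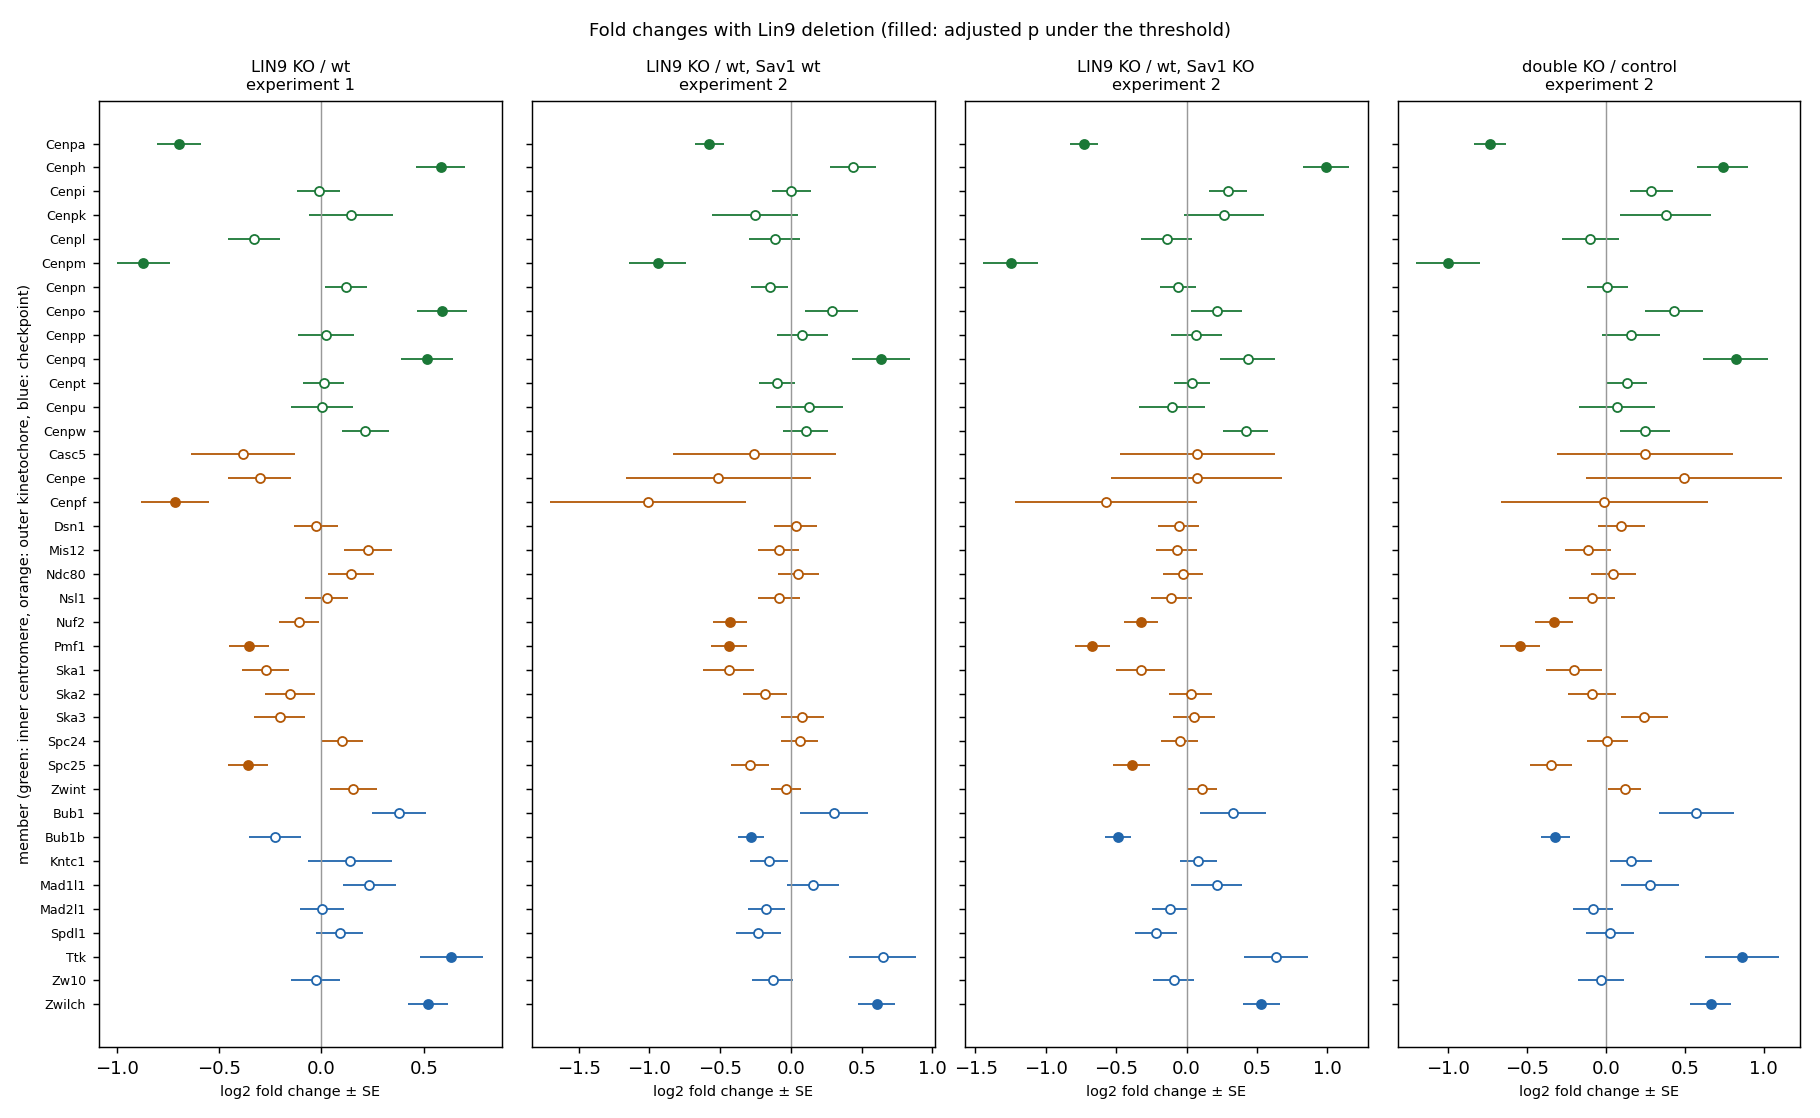
Log2 fold change and standard error of the 37 members tested, by role, in the 4 comparisons that differ in Lin9; filled points passed an adjusted p of 0.05. Cenpa, Cenpm and Pmf1 are filled to the left and Zwilch to the right in all 4 panels, and the bars of Casc5, Cenpe and Cenpf are wide in the second experiment. Panels of the second experiment share libraries and are no independent repeats.

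The first and the second experiment share no sample. LIN9 KO against LIN9 wt with Sav1 intact called 5 members in both, all in the same direction: Cenpa, Cenpm and Pmf1 lower, Cenpq and Zwilch higher. That is 50% of the members called in the first experiment and 71.4% of those in the second, beside 63.4% and 63.9% for all genes. All 2621 genes called in both experiments had the same direction in both as well. Of the 37 members, 25 had the same sign in both, against 77.6% of the 17656 genes tested in both.

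Deleting Sav1 with Lin9 intact called 0 of 37 members by edgeR, with 0.017% of all genes called, 0 members at an unadjusted p under 0.05 (3.92% of all genes) and 0 by DESeq2. Values of 30 members were above 0 (50.0% of all genes), and of 25 without control replicate 1, with a median of 0.09 (0.06 to 0.12 with 1 library left out) beside 0.00 over all genes, and 5.97% of all genes had every Sav1 KO library above every control library. Other lists lay above 0 as well: 30 of 36 DNA replication genes (83.3%, median 0.07) and 16 of 23 other kinetochore genes (69.6%, median 0.08). Bub1b, Ska3 and Zw10 were the 3 members with every Sav1 KO library higher, named after their values were seen, and 0 members had every Sav1 KO library lower (6.14% of all genes). Bub1b had 173.2, 172.7 and 172.9 CPM in the control against 202, 189 and 191 CPM in Sav1 KO, at 0.17 ± 0.09, which did not pass. Cenpq, at 0.39 ± 0.21, and Spdl1, the dynein adaptor of the kinetochore, at 0.24 ± 0.15, were with Bub1b the 3 members with the smallest p. Cenpq had 8.64, 16.1 and 15.2 CPM in the control against 14.8, 19.6 and 17.7 CPM in Sav1 KO. Spdl1 had 29.3, 34.6 and 27.3 CPM against 32.3, 41.5 and 34.1 CPM, and both genes overlapped between the groups. Cenpf and Casc5, at 0.57 ± 0.65 and 0.17 ± 0.56, overlapped too. Without control replicate 1, Cenpf was 0.09 and Cenpq 0.15, and without control replicate 3 Cenpf was 0.92. Spdl1 was 0.12 without Sav1 KO replicate 2 and 0.33 without control replicate 2. Casc5 was -0.18 without control replicate 1 and -0.01 without Sav1 KO replicate 2.

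In the LIN9 KO background, Sav1 deletion again called 0 members by edgeR, with 0.0113% of all genes called, and 2 members at an unadjusted p under 0.05 (11.8% of all genes). DESeq2 gave an adjusted p to 869 genes and 1 member only, so its count of 0 members is no test of the others. Values of 27 members were above 0 (50.1% of all genes), and of 25 when replicate 1 of either group was left out, with a median of 0.12 (0.07 to 0.15 with 1 library left out) beside 0.00 over all genes. Of the DNA replication genes 20 of 36 were above 0 (55.6%, median 0.01), and of the other kinetochore genes 12 of 23 (52.2%, median 0.01). Every double knockout library was above every LIN9 KO library for 5 members, Cenpe, Cenpf, Cenpi, Cenpk and Zwint, named after their values were seen, and for 7.2% of all genes. Cenpa was the 1 member with every double knockout library lower, at -0.16 ± 0.10, beside 7.88% of all genes. Kntc1 had 55.9, 55.1 and 63.8 CPM in LIN9 KO against 55.9, 87.3 and 74.0 CPM in the double knockout, overlapping, at 0.31 ± 0.14, at 0.16 without double knockout replicate 2 and at 0.46 without double knockout replicate 1. Cenpi, a partner of Cenph, had 38.5, 40.7 and 34.3 CPM against 51.5, 41.6 and 45.5 CPM, barely apart, at 0.29 ± 0.14. Cenpk, of the same complex, had 10.2, 25.6 and 25.0 CPM against 35.8, 28.9 and 28.8 CPM, with LIN9 KO replicate 1 far under the rest, at 0.63 ± 0.29. The value was 0.31 without that library, 0.86 without LIN9 KO replicate 2 and 0.19 without all replicate 1 libraries. Cenpk passed with no filter on low counts (adjusted p = 0.0280, edgeR with Benjamini-Hochberg adjustment), which made 1 call beside 1.30% of 23826 genes. Cenpf lay at 1.00 ± 0.69 and Casc5 at 0.51 ± 0.57, with ranges of 0.63 to 1.44 and 0.07 to 0.85 when 1 library was left out. Without the replicate 1 libraries 2 members passed beside 0.759% of 17653 genes, both higher: Cenpe, and Cenpf at 0.69. Their low replicate 1 values were seen before that choice, so these calls are no test of them. The GC and length correction called 0 members, with or without the block. Without the replicate 1 libraries the members' median was 0.02, as was that of all genes.

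The interaction asks whether the Sav1 effect differs between the LIN9 backgrounds. It called 0 members and 0% of all genes by edgeR, and 0 members by DESeq2, with 1 member at an unadjusted p under 0.05, beside 6.54% of all genes. That member was Cenph, at 0.56 ± 0.23 (adjusted p = 0.709, edgeR with Benjamini-Hochberg adjustment). Over the alternatives tried, its value lay between 0.28 and 0.67. Bub1b and Cenpi followed at -0.21 ± 0.13 and 0.29 ± 0.19, and Cenpi had 32.2, 39.7 and 41.5 CPM in the control and 36.7, 40.5 and 35.8 CPM in Sav1 KO, which overlapped. Cenpf gave 0.44 ± 0.95, from 0.06 to 0.92 when 1 library was left out, and Casc5 gave 0.34 ± 0.79. Casc5 was -0.10 without LIN9 KO replicate 1.

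**Figure D4:**
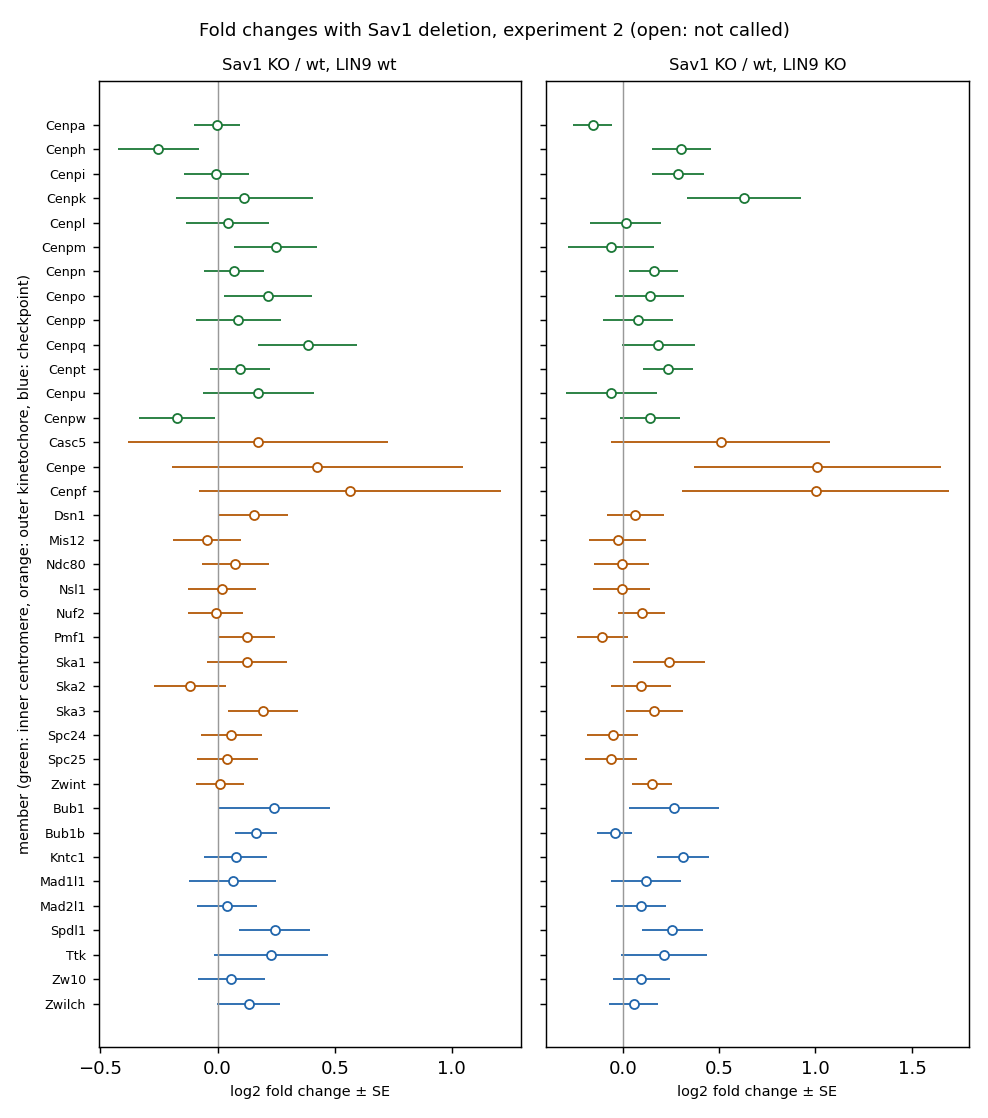
Log2 fold change and standard error of the 37 members tested, by role, on deletion of Sav1 with Lin9 intact (left) or deleted (right) in the second experiment. No point is filled, and 30 and 27 members lie above 0.

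Beside the members, 25 other kinetochore and centromere genes were listed, of which 23 were tested. In LIN9 KO of the first experiment 5 of them fell and 0 rose (21.7% called, beside 20.9% of all genes; median -0.10). In the second, 2 rose and 5 fell with Sav1 intact (30.4%, beside 23.2%), 2 rose and 8 fell with Sav1 deleted (43.5%, beside 23.4%), and 2 rose and 7 fell in the double knockout against the control (39.1%, beside 20.6%). Knstrn, which tethers spindle fibres at kinetochores, had 109, 118 and 107 CPM in LIN9 wt of the first experiment and 59.2, 56.9 and 62.6 CPM in LIN9 KO, at -0.90 ± 0.10. Cdca8, of the chromosomal passenger complex, had 79.3, 93.9 and 83.6 CPM against 57.1, 58.9 and 66.0 CPM, at -0.50 ± 0.10. Cdc20, the target of the checkpoint, had 78.7, 92.5 and 72.2 CPM against 53.6, 57.6 and 58.9 CPM, at -0.52 ± 0.11. All 3 genes kept LIN9 KO under LIN9 wt in every library, as did 18.1% of all genes. Of 36 DNA replication genes tested, 1 rose and 5 fell in the first experiment (16.7% called, beside 20.9% of all genes; median -0.00). In the second, 2 rose and 7 fell with Sav1 intact (25.0%, beside 23.2%; median -0.15), 1 rose and 12 fell with Sav1 deleted (36.1%, beside 23.4%; median -0.19), and 0 rose and 10 fell in the double knockout against the control (27.8%, beside 20.6%; median -0.15).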

How the data were processed

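RNA of ventricles was sequenced in 18 libraries (6 groups of 3). The authors aligned reads to mm10 with TopHat 2.1.0 and Bowtie2, brought samples of an experiment down to the one with the fewest mappable reads, and deposited counts per Ensembl gene; overlap mode and strand are not stated. 4 repeated identifiers in each table were kept once. The authors' comparison tables hold log2 fold changes and p-values as deposited and were not used, and 4 ChIP-seq samples were not analysed here. Genes with a mean count above 1 were tested with edgeR 4.0.16 (R 4.3.3; TMM, robust quasi-likelihood), Benjamini-Hochberg over all genes tested, threshold 0.05. The second experiment was fitted as 12 libraries together. Each SE of a log2 fold change is its absolute value divided by the square root of the quasi-likelihood F statistic. These SE values are derived from the test and add nothing to its p-value. DESeq2 1.42.0 was an alternative. GENCODE M21 gave lengths and overlaps.

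The members and lists were chosen with earlier results of these data known. Named with values in every library are Casc5, Cenpf and, for each role, the 3 members with the smallest p in the first experiment; for the Sav1 comparisons and the interaction Casc5, Cenpf and the 3 smallest p; of the other kinetochore genes the 3 smallest p. Other members that passed or moved with a setting were named after their values were seen. Replicate numbers come from the labels. Deviations of same-numbered libraries were correlated on genes with a mean count above 10. Every pair lay above 0.1 only in LIN9 KO against LIN9 wt with Sav1 intact in the second experiment (0.217 to 0.600). Over all genes tested the lowest was 0.0891, so the pairing there depends on the genes used. The set above 10 was written first, the other tried next, and the first taken again with both results known.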

Additional observations from a re-analysis of the deposited data

How the results depend on the processing

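Over 77 gene results, 1225 values were recomputed under other settings, and 1114 kept their direction and side of the threshold, 41 lost the call, 52 gained it and 18 turned in direction. Of the 1114, 6 had no adjusted p, all from DESeq2 in Sav1 deletion in LIN9 KO, so that only their direction was kept. Leaving out 1 library at a time, the members called ranged from 7 to 14 (first experiment, LIN9 KO, beside 13.8% to 21.5% of all genes), 5 to 9 (second, Sav1 wt, 17.2% to 23.3%), 6 to 8 (Sav1 KO, 16.85% to 21.8%) and 7 to 10 (double knockout, 2470 of 17647 genes to 19.7%), and were 0 for the Sav1 comparisons and the interaction, where at most 2.14% of all genes were called. The first experiment's median ranged from -0.0243 to 0.0470 with 1 library left out, and the others from -0.163 to -0.0467 (Sav1 wt), -0.0622 to -0.0050 (Sav1 KO), 0.0157 to 0.1276 (double knockout), 0.0553 to 0.1224 (Sav1 deletion, LIN9 wt), 0.0685 to 0.1531 (Sav1 deletion, LIN9 KO) and -0.0090 to 0.0806 (interaction). Chosen after seeing the data: a GC and length correction moved the first median to -0.0403 (all genes -0.0336), and with the replicate block to -0.0449 (all genes -0.0360) with 16 calls (29.4% of all genes); leaving out all replicate 1 libraries moved the double knockout median to -0.0486, and the median of Sav1 deletion in LIN9 KO to 0.0190 with 2 calls (0.759% of all genes); the correction gave 0.0390 there, and 0.0399 with the block. No filter gave 1 call there (1.30% of all genes). Values of Casc5 turned to 0.0122 and 0.1767 (Sav1 wt; lowest -0.6367), -0.1310 and -0.1161 (Sav1 KO; highest 0.2475), -0.1058 (double knockout; highest 0.5196), -0.1822 and -0.0050 (Sav1 deletion, LIN9 wt; highest 0.4427) and -0.1002 (interaction; highest 0.7049) without 1 library; to -0.1081 and -0.0829 (Sav1 KO, double knockout) without replicate 1 libraries; to -0.1354 and -0.0165 with the correction; and to -0.1077 (Sav1 KO) with correction and block. Lin9 turned to 0.0189 (Sav1 KO; lowest -0.3261) and Cenpf to 0.0157, 0.2477 and 0.3482 (double knockout; lowest -0.4803) without 1 library, and Cenpf to 0.2326 with the replicate block. The cause was not tested. Of the calls of named members in the LIN9 comparisons, the block changed those of Ttk and Bub1 given with their values and no other call. What the library totals of the second experiment (2770741 to 2999877) limit was not tested.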
